A study of Homo sapiens with 16 samples.

Results

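The 10 genes described here encode parts of the transforming growth factor beta (TGF-beta) and bone morphogenetic protein (BMP) pathway: the ligand TGFB1, the receptors TGFBR1, TGFBR2, TGFBR3, ACVR1, BMPR1A and BMPR2, and the intracellular transducers SMAD3, SMAD6 and SMAD7. They were chosen by name from the 23459 genes of the deposited table, with earlier results of these libraries known, including the level of TGFBR2 with CD86 shRNA. The p-values below therefore describe the members and are no independent evidence for them. All 10 were present in the table.

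The study measured messenger RNA (Illumina TruSeq libraries) in 16 cultures, 1 library for each combination of 4 human myeloma backgrounds and 4 short hairpin RNA (shRNA) conditions. The backgrounds were the established myeloma cell lines MM.1s, RPMI8226 and KMS18, and RPMI8226 that overexpressed the survival protein Mcl1, here called RPMI8226 Mcl1. Each background received the empty pLKO.1 vector (Vec), a control hairpin against Gapdh, a hairpin against CD28, or a hairpin against its ligand CD86. The question was how silencing of this receptor and ligand pair changes myeloma gene expression, since the series' title assigns CD86 a survival role. Every library thus carried the hairpin vector, no culture without it is among the samples analysed here, and the Mcl1 background is a derivative of RPMI8226, not a separate patient's line. How many hairpins were used per target, and their sequences, the sources used here do not say. With 1 library per combination, the lines stand in for replicates in the comparisons of shRNAs. The p-values of these comparisons rest on 1 spread per gene, pooled over all 4 shRNA conditions in the 3 parental lines and moderated across genes. They do not measure how the response to 1 hairpin alone varies between lines. In the comparisons of backgrounds, the 4 shRNA conditions stand in for replicates of a line. Those p-values measure spread over shRNA conditions, not between repeated cultures of a line.

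As background, TGF-beta ligands bind a type II receptor kinase (TGFBR2), which recruits and phosphorylates a type I kinase (TGFBR1), and the type I kinase phosphorylates SMAD3 and its relative SMAD2. BMP ligands work through BMPR2 as a type II receptor with BMPR1A or ACVR1 as type I receptors, and signal to SMAD1, SMAD5 and SMAD9. TGFBR3, or betaglycan, is a co-receptor that presents ligand, and SMAD6 and SMAD7 are inhibitory SMADs, themselves induced by the pathway. In myeloma, TGF-beta is made by both tumour and stromal cells of the marrow, and normal B-lineage cells are growth-inhibited by it.

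The libraries held 3914513 to 5900955 reads in genes, and in each background the fewest were in the CD28 shRNA library. GAPDH stood at 10.7% to 53.0% of Vec with its own hairpin, CD28 at 65.1% to 79.3%, and CD86 at 44.1% to 76.3%, with the highest in RPMI8226. CD86 was also above Vec in all 4 libraries with CD28 shRNA, at 125% to 282%, and with the control hairpin it ranged from 94.1% to 203%, above Vec in MM.1s and KMS18. All 6 plasma cell markers were present in every library, with a median between 26.3 and 133 FPKM (fragments scaled to exon length and library size), while all 6 stromal markers stayed below 1 FPKM in every library and 3 of them were listed at 0. Summed T cell markers ranged from 0 to 7.56 FPKM and summed myeloid markers from 0 to 3.54 FPKM over 4 markers each. MCL1 stood at 51.2 FPKM in RPMI8226 with Vec and 127 FPKM in RPMI8226 Mcl1 with Vec.

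The promoters of TGFB1 and TGFBR2 are shown because these are the 2 members called lower in a comparison of CD86 shRNA. Sequences are RefSeq's, build GRCh38.p14, 250 bases ending at the base before an annotated start, read 5′ to 3′ on the gene's strand. Capitals mark the GC box GGGCGG, or its reverse complement. All 10 members matched the RefSeq promoter table, with 26 windows in all. The TGFB1 window is chr19:41353923-41354172 on the minus strand, and the TGFBR2 window is chr3:30606106-30606355 on the plus strand, before the more upstream of its 2 annotated starts.
TGFB1: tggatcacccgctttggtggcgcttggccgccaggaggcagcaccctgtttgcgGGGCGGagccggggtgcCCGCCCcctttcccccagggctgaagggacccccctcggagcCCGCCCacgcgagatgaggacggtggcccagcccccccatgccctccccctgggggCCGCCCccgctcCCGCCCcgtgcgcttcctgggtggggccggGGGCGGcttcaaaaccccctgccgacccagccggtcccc
TGFBR2: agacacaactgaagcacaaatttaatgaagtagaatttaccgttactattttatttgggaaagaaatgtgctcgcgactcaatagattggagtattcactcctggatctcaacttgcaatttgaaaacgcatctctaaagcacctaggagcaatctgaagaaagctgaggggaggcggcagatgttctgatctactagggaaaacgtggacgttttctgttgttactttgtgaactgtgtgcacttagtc

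The TGFB1 window is 76.8% G and C and holds 6 GC boxes. The TGFBR2 window is 40.8% G and C and holds none, and the window of its other start, which overlaps the transcribed part of the first, holds 2. Of 35116 windows of the same length over all genes, 42.6% hold a GC box on either strand. The AP-1 motif TGANTCA (6.57% of windows), the cyclic AMP element TGACGTCA (1.65%) and the SMAD palindrome GTCTAGAC (0.182%), also searched on both strands, were in neither of the printed windows. Among the other members, the SMAD6 window (chr15:66701986-66702235, plus strand) held 1 GTCTAGAC, 12 bases before the start. These are matches of letters, with no binding data behind them.

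FPKM are per length of exon, so levels can be compared between genes. TGFB1 had the highest mean level over the 16 libraries (45.0 FPKM, range 11.1 to 76.9), followed by SMAD7 (8.49, range 3.59 to 20.9) and TGFBR2 (7.26, range 1.84 to 22.2). SMAD3 (3.58), TGFBR1 (3.04), ACVR1 (1.84), BMPR2 (1.83) and BMPR1A (1.14) came next, and TGFBR3 (0.785) and SMAD6 (0.523) were lowest. Ranges of all neighbours in this order overlapped over the 16 libraries. In MM.1s with CD86 shRNA the first 2 changed places, with SMAD7 at 20.9 and TGFB1 at 11.1 FPKM.

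**Figure D1:**
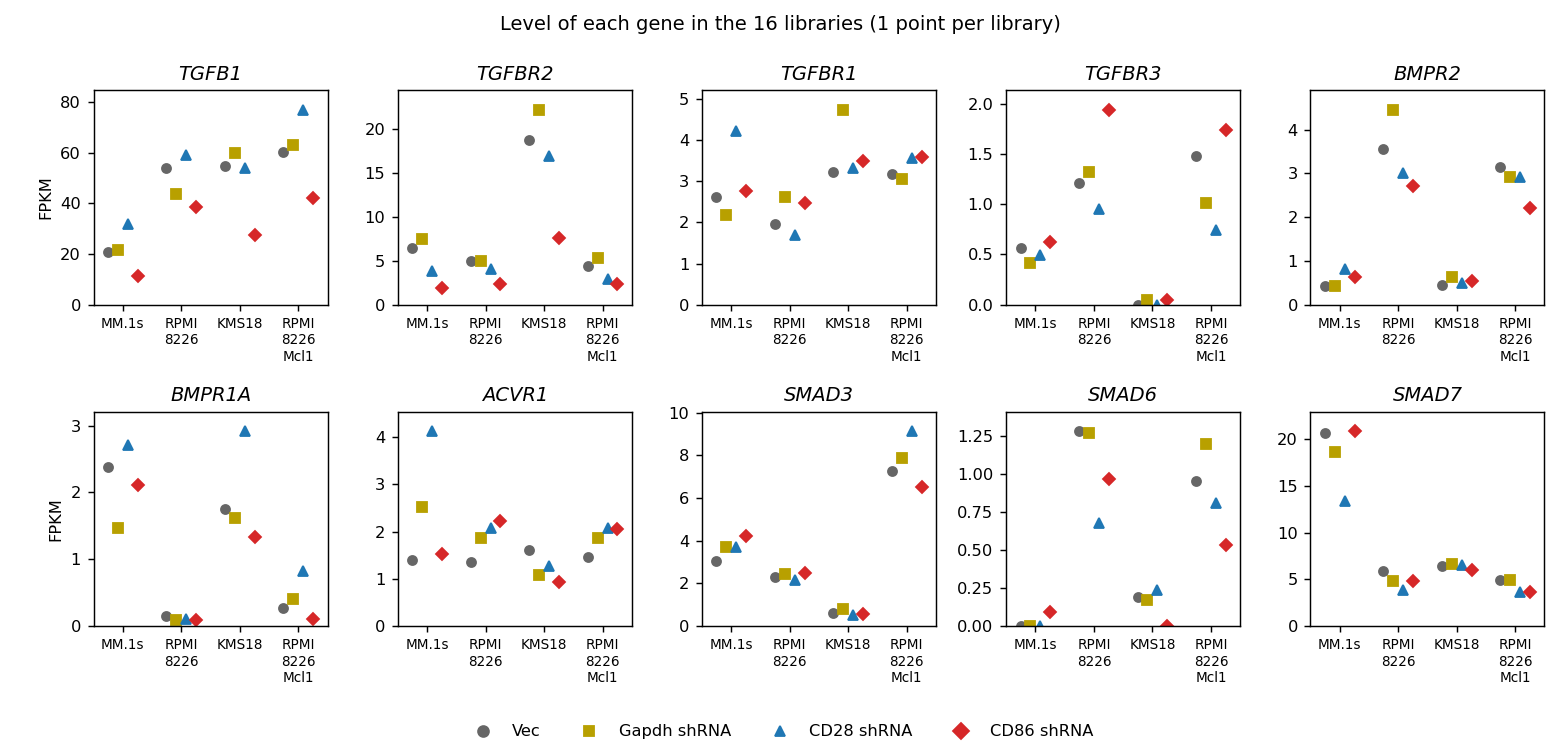
Level in FPKM (vertical axes, linear from 0, a separate scale for each gene) of the 10 genes in the 4 backgrounds (horizontal axis), 1 point per library, with the shRNA condition shown by shape and colour. TGFBR2 and TGFB1 are lowest with CD86 shRNA within each background, and the larger differences for BMPR1A, BMPR2, SMAD3 and SMAD7 lie between backgrounds.

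The ligand gene TGFB1 was lower with CD86 shRNA than with Vec in all 4 backgrounds. In MM.1s it stood at 20.9 FPKM with Vec, 21.4 with Gapdh shRNA, 31.8 with CD28 shRNA and 11.1 with CD86 shRNA. In RPMI8226 the levels, in the same order, were 53.9, 43.8, 59.2 and 38.6 FPKM, and in KMS18 they were 54.9, 59.9, 53.8 and 27.3 FPKM. The library with CD86 shRNA was the lowest of its background each time, on 167 to 584 reads in the parental lines. RPMI8226 Mcl1 gave 60.4, 63.2, 76.9 and 42.0 FPKM. Across the 3 parental lines TGFB1 was at 58.2% ± 11.7 of Vec (SD, n = 3) with CD86 shRNA, and at 69.5% in RPMI8226 Mcl1.

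TGFBR2, the receptor that binds TGF-beta first, was also lower with CD86 shRNA in every background, and by more. In MM.1s it stood at 6.42 FPKM with Vec, 7.42 with Gapdh shRNA, 3.78 with CD28 shRNA and 1.84 with CD86 shRNA. RPMI8226 gave 4.92, 5.02, 4.02 and 2.35 FPKM in the same order, and KMS18 gave 18.7, 22.2, 17.0 and 7.64 FPKM. All 4 backgrounds had the same order of conditions, since RPMI8226 Mcl1 gave 4.37, 5.31, 2.94 and 2.33 FPKM. As a percentage of Vec, TGFBR2 with CD86 shRNA was 28.6% in MM.1s, 40.8% in KMS18, 47.8% in RPMI8226 and 53.3% in the derived line. The mean over the parental lines was 39.1% ± 9.69 (SD, n = 3), on 59, 76 and 201 reads with CD86 shRNA against 172, 166 and 582 with Vec. Levels overlapped between conditions only across lines: KMS18 with CD86 shRNA (7.64 FPKM) was above MM.1s and RPMI8226 with Vec.

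**Figure D2:**
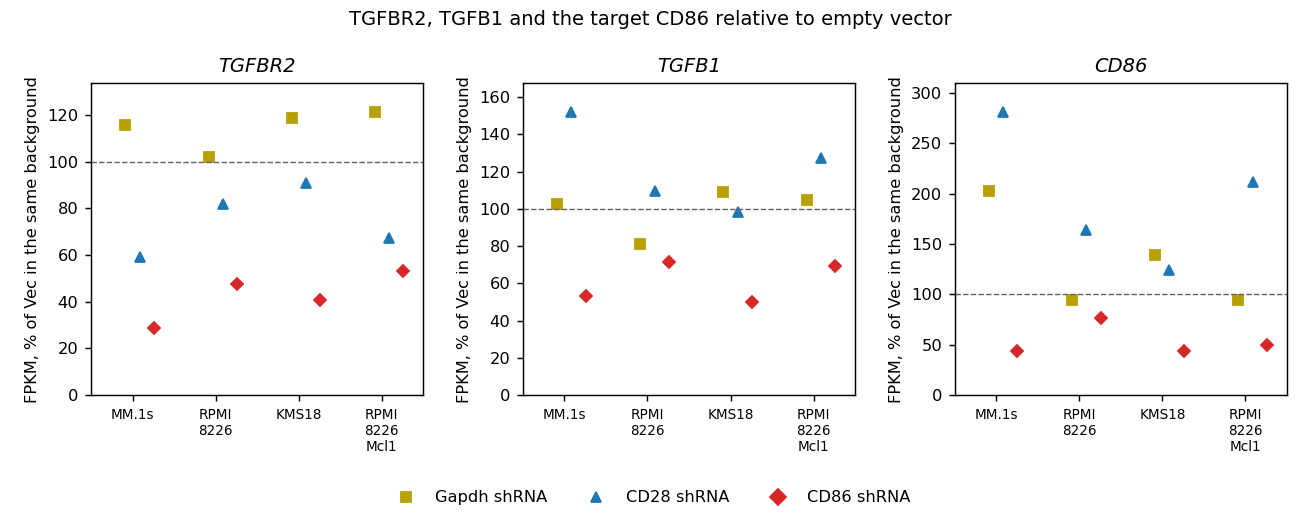
FPKM of TGFBR2, TGFB1 and the hairpin's target CD86 as a percentage of Vec in the same background (vertical axis, dashed line at 100%), 1 point per library for Gapdh, CD28 and CD86 shRNA. With CD86 shRNA all 3 genes lie below 100% in the 4 backgrounds, TGFBR2 between 28.6% and 53.3% and TGFB1 between 49.8% and 71.6%.

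In limma fits of log2(FPKM + 1) over the 12 parental libraries, with shRNA and line as terms, 71 of 11316 genes tested differed between CD86 shRNA and Vec at an adjusted p under 0.05, or 0.627%. A fitted change on this scale understates that of a low gene. Of the 8 members tested, 1 was called, TGFBR2, which was lower by −1.13 (SE 0.15, 95% interval −1.47 to −0.80, limma adjusted p = 0.0127). TGFB1 was at −0.77 (SE 0.17, interval −1.14 to −0.40) with a limma adjusted p of 0.0822, past the threshold under voom weighting of the read numbers (−0.75, adjusted p = 0.0187) and in none of the other 8 alternatives run. The remaining 6 lay between −0.15 and 0.14, and the median of the 8 was −0.06 beside 0.02 for all genes tested. TGFBR3 and SMAD6 stayed under the mean of 1 FPKM required for testing. The TGFBR2 call was lost when MM.1s (−1.01, limma adjusted p = 0.13), RPMI8226 (−1.29, 0.0512) or KMS18 (−1.10, 0.279) was left out, where each shRNA keeps 2 libraries, and without the line term (adjusted p = 1). In the authors' deposited table, TGFBR2 had a log2 fold change of −1.40 (false discovery rate 9.06e-11) and TGFB1 of −0.80 (7.66e-05) for CD86 shRNA against Vec. That table marks 185 of 14975 genes, 1.24%, as called for this comparison, TGFBR2 and TGFB1 among them. The false discovery rates of the genes it calls reach at most 0.00997 in any comparison, a stricter cut than the 0.05 used here. The authors' fold changes come from a likelihood ratio test, not from log2(FPKM + 1). By its label that test appears to leave out the Gapdh shRNA and RPMI8226 Mcl1 libraries, whereas the fits here include Gapdh shRNA.

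With CD28 shRNA, 320 of 11316 genes were called by limma (2.83%) and 562 by voom. Of the 8 members tested, 0 were called by limma and 0 by voom. At an unadjusted p under 0.05 by limma there was 1 member, SMAD7, beside 2240 of 11316 genes. TGFBR2 was below Vec in 4 of 4 backgrounds, at 59.0% in MM.1s, 67.3% in RPMI8226 Mcl1, 81.7% in its parent and 90.8% in KMS18. Its fitted change was −0.33 (95% interval −0.67 to 0.0011, limma adjusted p = 0.254). TGFB1 went from 98.1% of Vec in KMS18 to 152% in MM.1s, with a fitted change of 0.23 (interval −0.14 to 0.60, limma adjusted p = 0.5). Without MM.1s the changes were −0.19 for TGFBR2 and 0.052 for TGFB1, and without KMS18 TGFB1 was at 0.36. SMAD7, the inhibitory SMAD that targets TGFBR1 for degradation, stood at 64.8% of Vec in RPMI8226, 64.9% in MM.1s, 73.7% in RPMI8226 Mcl1 and 102% in KMS18 (fitted −0.36, SE 0.14, limma adjusted p = 0.176, and −0.55 without KMS18). ACVR1, a type I receptor for BMPs and activins, was fitted at 0.42 (SE 0.23, limma adjusted p = 0.343), with 4.13 FPKM in MM.1s with CD28 shRNA against 1.40 with Vec, on 66 and 26 reads. Gapdh shRNA in MM.1s gave 2.53 FPKM on 53 reads. With Gapdh shRNA as control in the place of Vec, the fitted change of ACVR1 was 0.26 (limma adjusted p = 0.629). ACVR1 was at 78.3% of Vec in KMS18. Its fitted change was 0.085 without MM.1s and 0.74 without KMS18. The median change of the 8 was 0.11 beside −0.0030 for all genes tested. The authors' deposited table calls none of the 10 for CD28 shRNA against Vec, beside 420 of 14975 genes (2.8%).

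Set directly against CD28 shRNA, CD86 shRNA gave 1076 calls among 11316 genes (9.51%). Both TGFB1 (−1.0, SE 0.17, limma adjusted p = 0.00667) and TGFBR2 (−0.80, SE 0.15, adjusted p = 0.0111) were lower, 2 of 8 members tested. TGFB1 with CD86 shRNA was 35.0% of its level with CD28 shRNA in MM.1s, 50.8% in KMS18, 54.6% in RPMI8226 Mcl1 and 65.2% in its parent. For TGFBR2 the same ratios were 48.5%, 45.0%, 79.1% and 58.5%. The CD28 libraries are shared with the comparison above, and CD86 itself was above Vec in them, whose part in these differences was not tested. Without MM.1s the limma adjusted p was 0.0912 for TGFB1 and 0.0548 for TGFBR2, and without KMS18 it was 0.0508 and 0.145. No other member was called, the nearest being BMPR1A (−0.34, SE 0.16, limma adjusted p = 0.212). Rescaling the libraries by the median of gene ratios turned the split of all called genes from 612 higher and 464 lower to 497 higher and 572 lower, with TGFB1 at −1.04 and TGFBR2 at −0.83, both still called. The authors' deposited table gives TGFBR2 at −1.04 and TGFB1 at −1.05, both called among 879 genes (5.87%).

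**Figure D3:**
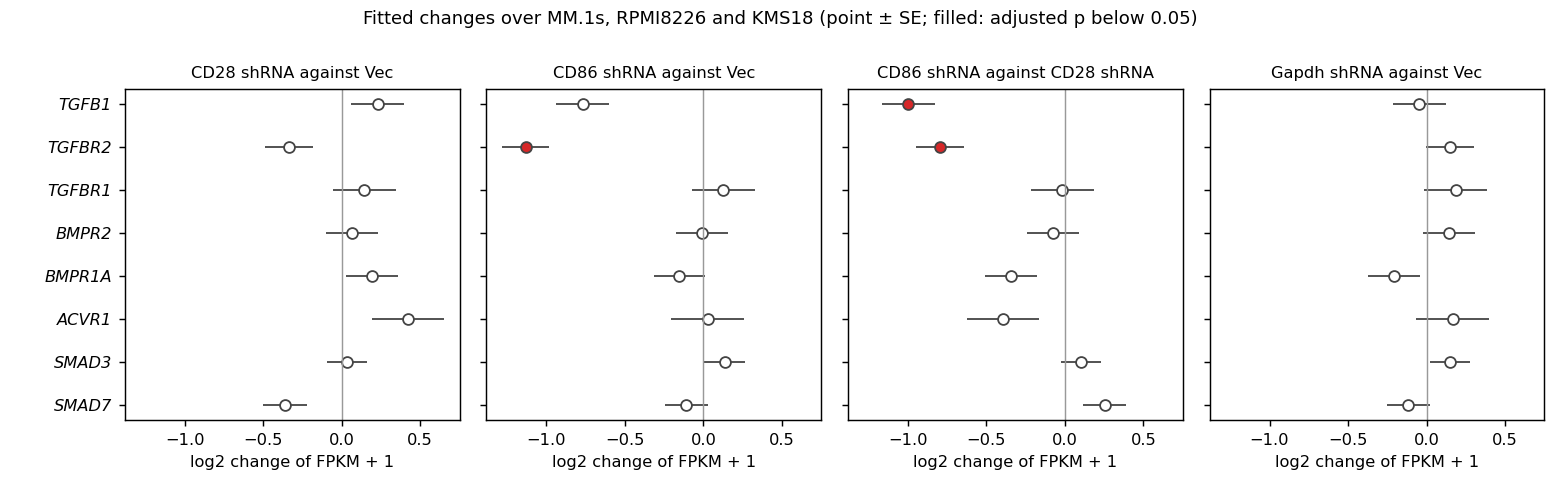
Fitted log2 change of FPKM + 1 (horizontal axis) for the 8 tested members in 4 comparisons over MM.1s, RPMI8226 and KMS18, with bars of 1 SE and filled points for an adjusted p below 0.05. TGFBR2 is filled in both comparisons of CD86 shRNA, TGFB1 in that against CD28 shRNA, and no point is filled for CD28 or Gapdh shRNA against Vec.

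For the control hairpin against Gapdh 0 of 8 members were called by limma and 0 by voom, with 0 at an unadjusted p under 0.05. Of 11316 genes, 0 (0%) were called against Vec by limma and 0 by voom, with 402 at an unadjusted p under 0.05. TGFBR2 was above Vec in 4 of 4 backgrounds with this hairpin, at 102% to 121%, and fitted at 0.15 (interval −0.19 to 0.48, limma adjusted p = 1.00). TGFB1 was fitted at −0.05 (interval −0.42 to 0.33). With Gapdh shRNA in the place of Vec as control, TGFBR2 with CD86 shRNA was lower by −1.28 (limma adjusted p = 0.00538) and TGFB1 by −0.72 (adjusted p = 0.0761).

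The Mcl1-overexpressing line had the same direction for both genes. The difference between its response to CD86 shRNA and the mean response of the 3 parental lines was 0.44 for TGFBR2 (SE 0.31, interval −0.23 to 1.12, limma adjusted p = 1) and 0.25 for TGFB1 (SE 0.34, interval −0.49 to 1.00, adjusted p = 1). Among 11349 genes tested for that difference, 0 (0%) were called by limma and 0 by voom, with 293 at an unadjusted p under 0.05. For CD28 shRNA the same test called 1 of 11349 genes (0.00881%), no member among them, with TGFBR2 at −0.11 and TGFB1 at 0.11. These intervals are wide, since RPMI8226 Mcl1 has 1 library per hairpin.

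KMS18 had the most TGFBR2, with a mean over its 4 libraries of 16.4 ± 6.21 FPKM (SD, over the 4 shRNA conditions, as in all means below) against 4.86 ± 2.54 in MM.1s, 4.08 ± 1.24 in RPMI8226 and 3.74 ± 1.35 in RPMI8226 Mcl1. The lowest KMS18 library (7.64 FPKM) was above the highest MM.1s library (7.42 FPKM). For TGFBR1, the type I kinase of the same receptor, the means were 3.69 ± 0.705 in KMS18, 3.35 ± 0.273 in RPMI8226 Mcl1, 2.95 ± 0.891 in MM.1s and 2.18 ± 0.442 in RPMI8226, whose highest library (2.63) was below the lowest of KMS18 (3.22) and RPMI8226 Mcl1 (3.05). The co-receptor TGFBR3 was at 1.35 ± 0.419 in RPMI8226 and 1.24 ± 0.449 in RPMI8226 Mcl1, at 0.523 ± 0.0902 in MM.1s, and nearly undetected in KMS18, with 0 to 2 reads per library. TGFBR3 was also highest with CD86 shRNA in RPMI8226 (1.94 FPKM against 1.21 with Vec), RPMI8226 Mcl1 (1.73 against 1.48) and MM.1s (0.625 against 0.562). The hairpin was not tested for this gene, and KMS18 had too few reads to rank the conditions. The derived line and its parent differed in TGFBR3 by −0.078 (SE 0.13, limma adjusted p = 0.684).

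The BMP receptors divided the lines differently. BMPR2, the type II receptor, was at 3.44 ± 0.762 FPKM in RPMI8226 and 2.80 ± 0.404 in RPMI8226 Mcl1, but at 0.573 ± 0.183 in MM.1s and 0.532 ± 0.0821 in KMS18. BMPR1A, a type I receptor that pairs with it, was high where BMPR2 was low: 2.17 ± 0.530 in MM.1s and 1.91 ± 0.697 in KMS18, against 0.105 ± 0.0334 in RPMI8226, where each library held 2 to 4 of its reads. RPMI8226 Mcl1 libraries held 2 to 14 BMPR1A reads. No library of RPMI8226 or RPMI8226 Mcl1 overlapped any of MM.1s or KMS18 for either gene. ACVR1 varied less, from 1.23 ± 0.297 in KMS18 to 2.40 ± 1.26 in MM.1s, and its ranges overlapped in all lines.

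Among the SMADs, SMAD3 had its highest levels in RPMI8226 Mcl1, with 7.27 FPKM with Vec, 7.89 with Gapdh shRNA, 9.14 with CD28 shRNA and 6.54 with CD86 shRNA. MM.1s gave 3.02, 3.72, 3.71 and 4.23 FPKM in the same order, RPMI8226 gave 2.27, 2.41, 2.15 and 2.46, and KMS18 gave 0.594, 0.775, 0.512 and 0.540. The 4 backgrounds did not overlap for SMAD3, while it was called for no hairpin. SMAD7 was highest in MM.1s, with 20.7, 18.7, 13.4 and 20.9 FPKM, and no library of another background was above 6.68 FPKM. In KMS18 it was 6.46, 6.68, 6.57 and 5.97 FPKM, the flattest profile across hairpins of any line, beside 5.91, 4.83, 3.83 and 4.86 in RPMI8226. SMAD6, which acts mainly against BMP signals, was at 1.05 ± 0.286 in RPMI8226 (12 to 29 reads) and 0.873 ± 0.279 in RPMI8226 Mcl1 (9 to 23 reads). In MM.1s it had 0 to 2 reads and in KMS18 0 to 4, too few to compare hairpins.

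The line contrasts, with the 4 shRNA conditions as replicates of a line, called most genes, so the members' counts stand against a high background. For KMS18 against MM.1s, 65.3% of 11316 genes were called and 5 of 8 members: TGFBR2 (1.60) and TGFB1 (1.19) higher, SMAD3 (−1.54), SMAD7 (−1.37) and ACVR1 (−0.55) lower. For KMS18 against RPMI8226, 70.3% of genes and 6 of 8 members were called, with TGFBR2 (1.72), BMPR1A (1.37), TGFBR1 (0.56) and SMAD7 (0.35) higher and BMPR2 (−1.52) and SMAD3 (−1.05) lower. For MM.1s against RPMI8226, 69.1% of genes and 5 of 8 members were called, with SMAD7 (1.72), BMPR1A (1.5) and SMAD3 (0.48) higher and BMPR2 (−1.49) and TGFB1 (−1.23) lower. The pseudocount shrinks the differences of low genes: by voom BMPR1A was at 3.89 for KMS18 and 4.10 for MM.1s against RPMI8226, BMPR2 at −2.67 and −2.62, and SMAD3 at −2.56 and −1.93 for KMS18 against MM.1s and RPMI8226. The members' shares of 62.5%, 75.0% and 62.5% are near the background. BMPR2 reached the mean of 1 FPKM required for testing only through RPMI8226 (3.44 FPKM, against 0.573 in MM.1s and 0.532 in KMS18). It counts in the shares of both contrasts with RPMI8226, and its calls there are no independent support for a lower level. The calls of ACVR1 (KMS18 against MM.1s), TGFBR1 and SMAD7 (KMS18 against RPMI8226) were each lost in 1 to 3 of 8 alternatives, and the other 13 were past the threshold in all 8.

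RPMI8226 Mcl1 differed from its parent in 3793 of 11024 genes tested, or 34.4%, and in 3 of 8 members tested, these 3 higher. By voom 4 were called, the other being BMPR2, which was lower (−0.34, adjusted p = 0.0141, against −0.21 and 0.179 by limma). The share of 34.4% is by limma and gives no background for this voom count. SMAD3 was higher by 1.38 (SE 0.11, 95% interval 1.12 to 1.64, limma adjusted p = 0.000157), in 4 of 4 shRNA conditions, and was past the threshold in 8 of 8 alternatives (fitted 1.28 to 1.67). TGFB1 was higher by 0.29 (SE 0.07, adjusted p = 0.0179) and TGFBR1 by 0.46 (SE 0.13, adjusted p = 0.0282). TGFB1 lost its call without the CD28 (0.27, limma adjusted p = 0.0617) or the Gapdh libraries (0.22, 0.0583). TGFBR1 lost its call without the Vec, the CD28 or the CD86 libraries and with no filter on low genes. BMPR1A and SMAD6 fell under the filter here. All genes split into 2146 higher and 1647 lower, and into 1866 and 1892 under median-of-ratios scaling. The derived line is compared with its parent through 4 shRNA conditions, so the effect of Mcl1 and the line's separate history cannot be told apart.

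A list of 73 further genes of the pathway, all present in the table, gives the surroundings of the members. Of these, 46 had a mean of at least 1 FPKM over the 16 libraries, among them all 15 intracellular regulators, 4 of 5 other SMADs, and only 3 of 9 other receptors and co-receptors. ACVRL1, a type I receptor of endothelium, and GREM1, a secreted BMP antagonist, were listed at 0 in every library. The common mediator SMAD4 had means between 6.81 FPKM in KMS18 and 8.07 in RPMI8226, and was called in no line contrast. SMAD2 lay between 6.44 in RPMI8226 and 7.73 in KMS18, a difference that was called (0.23, SE 0.086, limma adjusted p = 0.0326).

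In the 12 parental libraries 46 listed genes were also tested, but not the same 46. INHBC (mean 0.822 FPKM over the 16 libraries) was tested there and FSTL3 (1.39) was not. With CD86 shRNA 0 of the 46 listed genes tested were called against Vec by limma, beside 0.627% of all genes. By voom 1 was called, beside 212 of 11316 genes. At an unadjusted p under 0.05 by limma there were 9 of 46, beside 1453 of 11316. The median change of the listed genes was 0.02. With CD28 shRNA 2 were called, both higher: FURIN, the protease that cleaves the TGF-beta precursor (0.50, SE 0.10, limma adjusted p = 0.0334), and KLF10, a TGF-beta inducible repressor (0.50, SE 0.11, adjusted p = 0.0400). That is 4.35% beside 2.83% of all genes. FURIN and KLF10 were at 0.28 and 0.38 with CD86 shRNA and at 0.23 and −0.016 with Gapdh shRNA, without a call. Neither was called between CD86 and CD28 shRNA (−0.22 and −0.11), and lines were not left out for these genes. Between CD86 and CD28 shRNA 2 were called by limma, also 4.35%, beside 9.51% of all genes. These were ID2, a BMP target, lower (−0.66, SE 0.18, limma adjusted p = 0.0458), and ZFYVE9, the SMAD anchor SARA, higher (0.61, SE 0.14, adjusted p = 0.0263). By voom 5 of the listed genes were called, a count for which the limma share of 9.51% is no background. At an unadjusted p under 0.05 by limma there were 16 of 46, beside 3022 of 11316. For Gapdh shRNA 0 of the 46 were called by limma and 0 by voom, with 1 at an unadjusted p under 0.05, beside 402 of 11316.

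**Figure D4:**
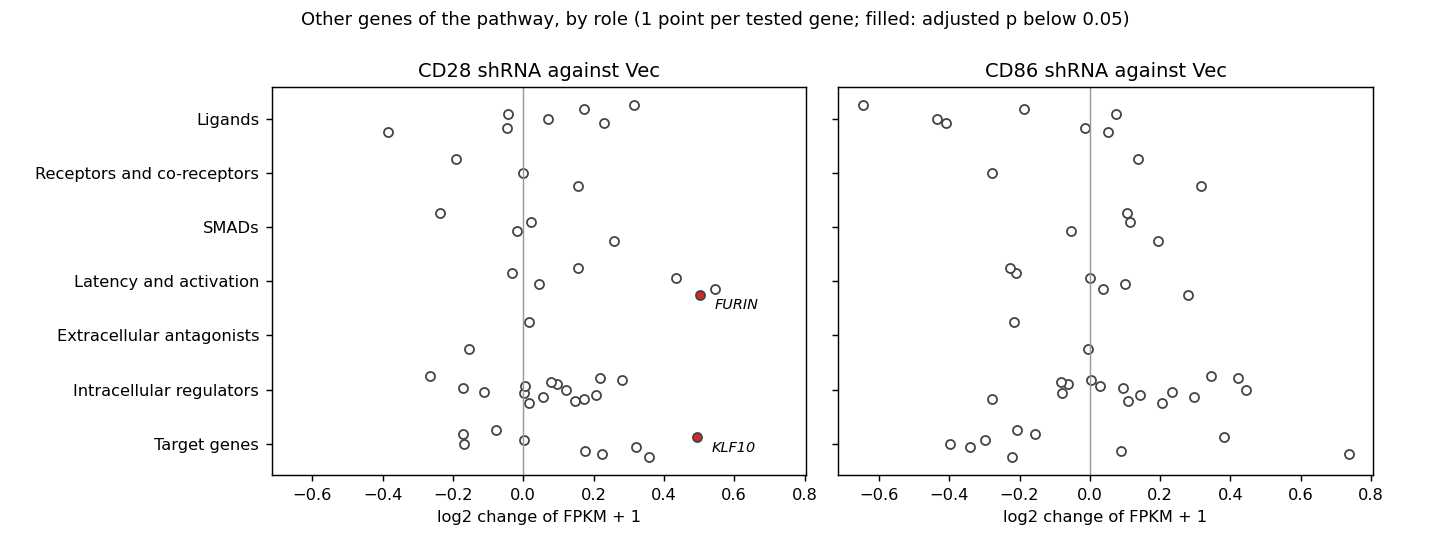
Fitted log2 change of FPKM + 1 (horizontal axis) for the 46 tested genes of the wider pathway list, grouped by role (vertical axis), with CD28 or CD86 shRNA against Vec, 1 point per gene. FURIN and KLF10 are the filled points (adjusted p below 0.05) with CD28 shRNA, and no gene is filled with CD86 shRNA.

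The lines again differed in many of the listed genes, with 27 of 46 called for KMS18 against MM.1s (14 higher, 13 lower), 33 for KMS18 against RPMI8226 (13 and 20) and 27 for MM.1s against RPMI8226 (10 and 17). These are 58.7%, 71.7% and 58.7%, beside 65.3%, 70.3% and 69.1% of all genes. The counts include genes that reached the mean required for testing only through RPMI8226 (BMP7, INHBB and TGFBI) or only through KMS18 (INHBE). BMP7 had a mean of 24.6 FPKM in RPMI8226 and 17.6 in RPMI8226 Mcl1, was listed at 0 in KMS18 and had a mean of 0.0086 in MM.1s. INHBB, a subunit of activin B, was at 11.2 and 5.99 FPKM in the RPMI8226 backgrounds and listed at 0 in both other lines, and TGFBI, a TGF-beta induced matrix protein, was at 4.05 and 2.56 and likewise listed at 0. INHBE, a subunit of activin E, had a mean of 37.2 FPKM in KMS18, 0.658 in RPMI8226 and 0.0930 in MM.1s. ID2 was lowest in KMS18, at 4.40 FPKM against 25.0 in MM.1s and 47.5 in RPMI8226, whereas ID1, another target of BMP signals, was highest there, at 18.0 against 3.93 and 3.78.

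In RPMI8226 Mcl1 against RPMI8226, 21 of 45 listed genes were called, 46.7% beside 34.4% of all genes, 11 higher and 10 lower. ID1 (1.42), the BMP modulator TWSG1 (1.28), the pseudoreceptor BAMBI (1.21), INHBE (1.09) and the ligand BMP6 (0.75) were higher. INHBB (−0.81) was lower. INHBE reached the mean required for testing only through RPMI8226 Mcl1 (2.66 FPKM, against 0.658 in RPMI8226). ID1 rose from a mean of 3.78 FPKM in the parent to 11.9 in the derived line, and BAMBI from 2.30 to 7.0.

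The genes whose log2(FPKM + 1) followed a member most closely over the 16 libraries give a description of these patterns, most of which are differences between lines. For TGFB1 they were COLGALT1 (Pearson r = 0.963) and ALG8 (0.946), and TGFBR2 was followed by FKBP11 (0.947). For SMAD3 they were TPM3 (0.985) and GTF2IRD1 (0.975), for SMAD7 ZDBF2 (0.980) and LGALS17A (0.974), and for BMPR2 LPGAT1 (0.988) and TGFBI (0.986). BMPR1A was followed by UFC1 (0.974) and PCBP4 (0.970). The values were lower for ACVR1, with PRRT3 (0.860) and VIPR1 (0.846), and for TGFBR1, with ADAM22 (0.849) and PSMC6 (0.806). The 16 libraries are not independent, since 4 share each line.

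SMAD3 overlaps the antisense gene SMAD3-AS1 in RefSeq, and the 6 receptor genes overlap pseudogenes, a noncoding gene or, for TGFBR2, also an uncharacterised locus. None of the overlapping genes is in the deposited table and no strand setting is given, so their reads cannot be told apart from the members'. TGFB1, SMAD6 and SMAD7 have no overlapping gene in that annotation. Between 69.9% and 72.1% of read numbers from 1 to 100 were even, so read numbers may count both mates of a pair and overstate the number of fragments.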

How the data were processed

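The authors deposited 1 table with FPKM for 23459 genes in 16 libraries, exon lengths, and log2 fold changes, p-values and false discovery rates for 3 comparisons. The deposited likelihood ratio scores of the authors' test were not used. Per the submitters' processing notes, edgeR 3.12.1, R 3.2.2, Picard and TopHat2 2.0.13 were used, and mm9, hg19 and GRCh37 are named as builds, with no roles. FPKM times exon length and library total gave whole reads for 100% of values (tolerance 0.02). FPKM were tested with limma 3.58.1 in R 4.3.3 (empirical Bayes with trend, two-sided) on log2(FPKM + 1), where a gene's mean reached 1 FPKM in the libraries fitted. The 12 parental libraries were fitted with shRNA and line as terms (6 residual degrees of freedom), the 8 RPMI8226 and RPMI8226 Mcl1 libraries with background and shRNA (3), and all 16 with the interaction. P-values were adjusted by Benjamini-Hochberg over all genes tested, with a threshold of 0.05. No count model was used on FPKM, and voom on the recovered reads was an alternative, beside another pseudocount (0.25), no filter, median-of-ratios scaling, leaving out each line or condition, no line term, and Gapdh shRNA as control. The fit was tested on simulated data for CD86 shRNA against Vec, with changes placed only in genes above the level of most members tested. That run does not cover the members of lower level.

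The 10 members, the 73 pathway genes and the marker lists were chosen with earlier results of these data known. The text names all members, up to 6 pathway genes past the threshold in a comparison, and the 2 genes most correlated with each member whose mean is at least 1 FPKM, except 1 gene that is not reported here. SMAD2, SMAD4, ACVRL1, GREM1 and the levels of ID1 and ID2 by line were named after their values were seen.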

Additional observations from a re-analysis of the deposited data

Results flagged for a closer look

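SMAD6 in MM.1s was at 0.0928 FPKM with CD86 shRNA and at 0 in the other 3 libraries of that line, a gap as large as the whole range. The value rests on 2 reads. It was 1 of 40 groups of 4 libraries (10 genes in 4 backgrounds) examined in this way, and chance alone gives about 1 such sample in 20 groups.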

How the results depend on the processing

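For CD28 shRNA against Vec, 320 calls became 147 with no filter, 562 with voom, 33 to 132 with 1 line left out and 0 without the line term (no replicate block). For CD86 shRNA against Vec, 71 became 30, 212, 0 to 9 and 0 under the same settings, and 128 with Gapdh shRNA as control. For CD86 against CD28 shRNA, 1076 became 605 with no filter, 137 to 525 with 1 line left out and 0 without the line term. For Gapdh shRNA against Vec, leaving out a line gave 0 to 2 calls. In the Mcl1 line, the difference in CD28 response gave 0 calls with a pseudocount of 0.25, 113 with no filter and 0 with voom, and that in CD86 response 2 with the pseudocount and 115 with no filter. Fewer libraries, or more genes tested, are part of several of these settings, and no other cause was tested. The labels carry no replicate numbers, and the line term is the only block.

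Members that were not called changed sign in 20 of the fits. With CD28 shRNA these were BMPR2 with voom (−0.015), and TGFBR1, BMPR2 and SMAD3 against Gapdh shRNA (−0.041, −0.076 and −0.12) and without MM.1s. Leaving out lines gave −0.051 to 0.28 for TGFBR1, −0.066 to 0.078 for BMPR2 and −0.065 to 0.087 for SMAD3. The BMPR2 range lacks the fit without RPMI8226, where the gene fell under the filter. With CD86 shRNA they were BMPR2 with the smaller pseudocount (0.062), ACVR1 without RPMI8226 (−0.18 to 0.26 over the lines left out), and TGFBR1 (−0.058), ACVR1 (−0.14), BMPR1A (0.053), SMAD3 (−0.013) and SMAD7 (0.0079) against Gapdh shRNA. The others, with ranges over the libraries left out, were TGFBR1 for CD86 against CD28 shRNA (−0.21 to 0.21, positive without MM.1s) and TGFB1 for Gapdh shRNA (−0.13 to 0.079, positive without RPMI8226). Among backgrounds they were BMPR2 for KMS18 against MM.1s (−0.11 to 0.048, positive without the CD28 libraries), TGFB1 for KMS18 against RPMI8226 (−0.20 to 0.11, positive without the CD86 libraries), ACVR1 for MM.1s against RPMI8226 (−0.0098 to 0.35, negative without the CD28 libraries) and ACVR1 for the Mcl1 line against its parent (−0.025 to 0.020, positive without the CD86 libraries). TGFBR2 with CD86 shRNA against Vec kept its sign in 9 of 9 alternatives (−1.33 to −1.01) and was past the threshold in 5, and TGFB1 kept its sign in 9 (−0.92 to −0.66) and was past it in 1. Depth limits SMAD6 in MM.1s and KMS18, TGFBR3 in KMS18, and BMPR1A in both RPMI8226 backgrounds.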
